A study of Mus musculus with 4 samples.

Results

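The TNF and TNF receptor superfamily was examined in immature γδ thymocytes with and without the transcription factor c-Maf. The family was defined as the protein-coding genes of the GRCm38 RefSeq table whose symbols start with Tnfsf or Tnfrsf, together with Cd27, Cd40, Cd40lg, Fas, Fasl, Ltbr, Lta, Ltb, Tnf and Cd70. This gave 42 of 21627 gene symbols, 18 ligands and 24 receptors. Each accessible region went to the closest protein-coding gene if that lay no more than 100 kb away, and 414 of 171490 regions fell to a member. The assay was Omni-ATAC-seq, in which the Tn5 transposase cuts and tags open DNA. The WT group was Maf+/+ Il7r-Cre and the KO group Maf fl/fl Il7r-Cre, with 2 libraries each, numbered 1 and 2. Both groups carried Il7r-Cre, which is active from lymphoid precursors onwards, so in the KO fetuses the floxed gene is open to deletion in other lymphoid cells too. Cells came from pooled fetal thymi of embryonic day 17 to 18 on a C57Bl/6 background (5 backcross generations). They were sorted as TCRγδ-positive, CD3ε-positive cells lacking CD4 and CD8, with CD24 on the surface and low CD45RB. The labels did not state whether the libraries of a genotype were separate pools, so differences between them may be technical. Accessibility was measured in bulk, so a region open in fewer cells and a region less open in each cell cannot be told apart. RNA was not measured here, and an accessible region says nothing of transcript level.

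Ligands of this family are mostly membrane-bound trimers, and their receptors signal through TRAF adaptors to NF-kB and MAP kinases or, where the receptor has a death domain, through FADD to caspases. In the fetal thymus, γδ T cells that carry RANK ligand (Tnfsf11) and cells with lymphotoxin act on RANK and the lymphotoxin β receptor of epithelium, a step in building the medulla. The receptor CD27 is used to separate γδ cells committed to interferon-γ, which keep it, from those committed to IL-17, which lose it. c-Maf is a basic leucine zipper factor required for the IL-17 fate, and the design asked how its loss alters accessible chromatin at this stage.

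The 4 peak lists held 102718 and 132179 peaks in WT 1 and WT 2, and 130935 and 120141 in KO 1 and KO 2. WT 1 was therefore the shortest list. Each peak is described by its −log10 q as the authors' peak caller gave it, called its strength here. Strengths belong to 1 library's own scale, so between genotypes they are compared as rank percentiles among the 78650 regions that all 4 libraries called. Where strengths alone are given, no order between the genotypes is read from them. At the targeted gene, Maf (chromosome 8, 115703253 to 115706894), the strongest peak overlapping the gene had a strength of 15.0 in WT 1 and 15.9 in WT 2, against 3.17 in KO 1 and 3.06 in KO 2, at another position in the gene. The floxed interval is not given in the labels, so lost signal and deleted DNA cannot be told apart there. T cell markers had a peak within 1 kb of the gene start for 10 of 10 genes in every library. Of 6 γδ and type 17 markers, 3 had such a peak in all 4 libraries, and Il23r and Il17a had one in WT 2 alone. The markers of αβ thymocytes were open for 6 of 6 genes in every library. Markers of other cells had a peak in fewer starts: 3 to 4 of 8 for B cells, 2 to 3 of 8 for myeloid cells, 3 to 4 of 6 for erythroid cells and 3 to 4 of 10 for thymic epithelium and stroma. The starts of Pax5, Csf1r, Mpo, Gata1, Foxn1 and Krt5 had none in any library, while those of Ebf1, Cd79b, Spi1, Itgam, Epor, Epcam and Col1a1 had one in all 4.

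Over all samples, the family's accessible regions, like all regions, were mostly shared or seen in single libraries, and few belonged to 1 genotype. Of the 414 regions, 219 were called in all 4 libraries (52.9%), beside 45.9% of all regions. WT-only regions, present in WT 1 and WT 2 and absent from the KO lists, numbered 4 (0.966%), beside 2.07% of all regions. KO-only regions, the reverse case, numbered 11 (2.66%), beside 3.1%. Both shares lay below the background, so their size is no result about the family. A further 111 regions were called in 1 library alone (26.8%, beside 28.6% of all regions). Among them were 40 in KO 1 (9.66%, beside 10.1%) and 33 in WT 2 (7.97%, beside 9.84%). The libraries called 259 and 316 member regions in WT and 319 and 299 in KO. The WT mean was 287.5 ± 40.3 (SD, n = 2) and the KO mean 309 ± 14.1 (SD, n = 2), and the groups overlapped (exact permutation test, 2-sided, p = 0.667). The smallest p this design allows is 0.333. With equal numbers of peaks per library the difference of WT minus KO shrank from −21.5 to −5.5 regions, and the groups then did not overlap (exact permutation p = 0.333). Members made up 0.243% to 0.264% of the regions called in a library.

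**Figure D1:**
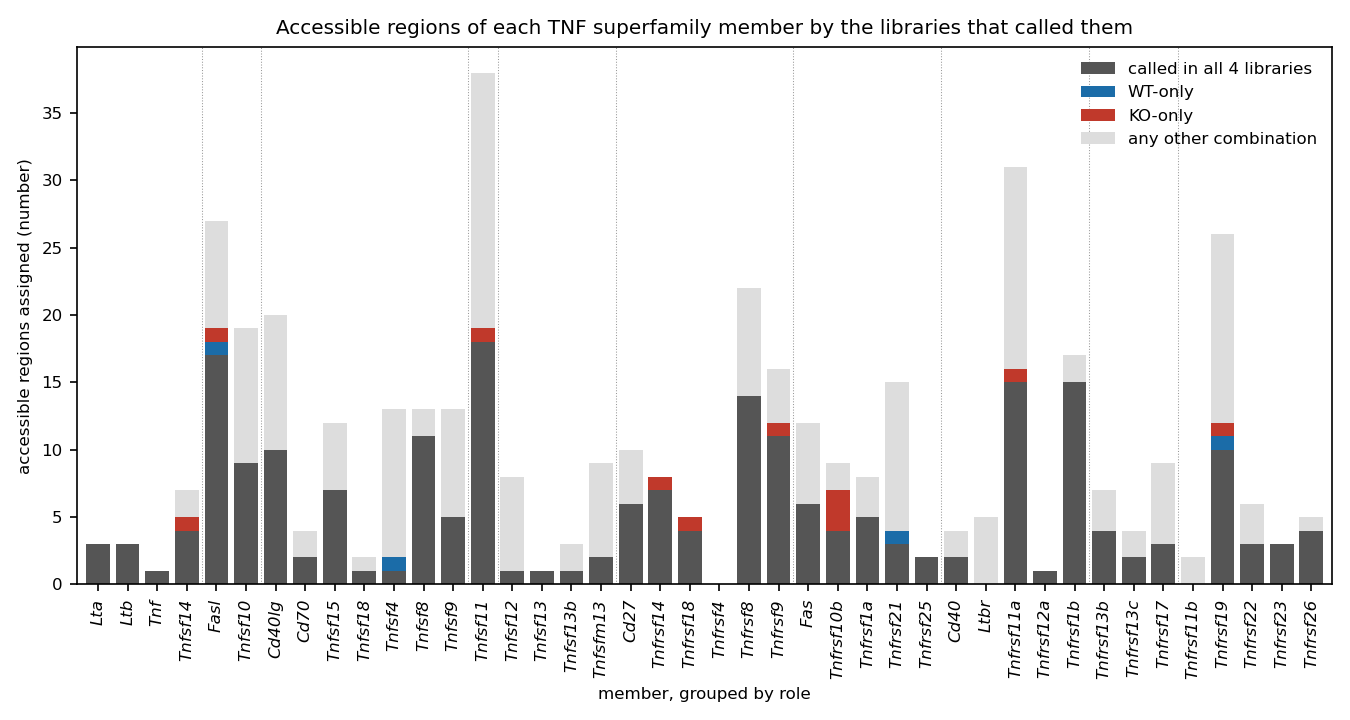
The number of accessible regions assigned to each member (vertical axis) is stacked by the libraries that called them: all 4 libraries, both WT libraries alone (WT-only), both KO libraries alone (KO-only) or any other combination. Tnfsf11 had 38 regions, the highest count, Tnfrsf4 had 0, and 11 members carried a WT-only or KO-only region.

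Regions were spread unevenly among members. A median of 8 regions was assigned per member, from 0 at Tnfrsf4 to 38 at Tnfsf11, followed by 31 at Tnfrsf11a, 27 at Fasl and 26 at Tnfrsf19. At least 1 region was called in all 4 libraries for 39 of the 42 members. The exceptions were Tnfrsf4 (OX40), with no region at all, Tnfrsf11b (osteoprotegerin, the soluble decoy for RANK ligand) and Ltbr (the lymphotoxin β receptor). Tnfrsf11b had 2 regions, both in KO 1 alone with a strength of 2.27. Ltbr had 5 regions, of which 4 were called in 1 library and 1 in WT 2 and KO 2, with a strength of 1.34 to 7.24. The members' regions lay inside gene bodies in 42.8% of cases, against 63.9% of all regions within 100 kb of a gene. Members were shorter than genes in general, with a median length of 13.1 kb against 17.3 kb. In addition, 23 members stood in 9 clusters with another member within 100 kb, such as Ltb, Tnf and Lta within 11.1 kb on chromosome 17, so neighbouring members share surroundings and are not independent.

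Promoters of 5 members, picked as examples, are shown for the 250 bases before the gene start, from RefSeq on GRCm38.p6. The first pair stood out between the genotypes. In Tnfrsf18 (chr4:156026072-156026321, plus strand) the capitals mark the 113 bases of a KO-only region. In Tnfrsf1a (chr6:125349473-125349722, plus strand) they mark the 124 bases that belong to a shared region of lower rank in WT.
Tnfrsf18: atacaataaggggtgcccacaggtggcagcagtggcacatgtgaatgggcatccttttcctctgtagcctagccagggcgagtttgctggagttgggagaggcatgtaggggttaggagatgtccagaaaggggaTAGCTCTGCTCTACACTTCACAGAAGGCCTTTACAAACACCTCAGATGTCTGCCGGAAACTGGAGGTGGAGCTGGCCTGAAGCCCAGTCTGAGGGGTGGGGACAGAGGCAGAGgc
Tnfrsf1a: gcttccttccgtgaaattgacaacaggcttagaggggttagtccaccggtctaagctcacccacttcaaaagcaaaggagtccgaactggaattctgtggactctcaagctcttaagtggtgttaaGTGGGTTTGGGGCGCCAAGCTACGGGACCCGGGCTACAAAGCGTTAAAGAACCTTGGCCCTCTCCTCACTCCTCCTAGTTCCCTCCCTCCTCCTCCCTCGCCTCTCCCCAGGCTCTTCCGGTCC
The other promoters hold letters of a searched motif, in capitals. Fasl (chr1:161788496-161788745, minus strand) and Cd27 (chr6:125237028-125237277, minus strand) each hold TGCTGA, one part of the Maf recognition element, once on each strand. Ltb (chr17:35194257-35194506, plus strand) holds an NF-kB motif.
Fasl: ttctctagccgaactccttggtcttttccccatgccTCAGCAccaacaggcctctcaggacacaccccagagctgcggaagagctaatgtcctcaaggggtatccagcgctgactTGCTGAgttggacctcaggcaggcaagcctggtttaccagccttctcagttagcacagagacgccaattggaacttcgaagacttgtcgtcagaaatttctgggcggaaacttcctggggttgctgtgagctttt
Cd27: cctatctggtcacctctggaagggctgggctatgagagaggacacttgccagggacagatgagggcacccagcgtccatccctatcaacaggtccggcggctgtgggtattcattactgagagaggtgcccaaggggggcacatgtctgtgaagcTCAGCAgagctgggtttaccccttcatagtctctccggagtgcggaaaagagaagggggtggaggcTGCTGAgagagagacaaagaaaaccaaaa
Ltb: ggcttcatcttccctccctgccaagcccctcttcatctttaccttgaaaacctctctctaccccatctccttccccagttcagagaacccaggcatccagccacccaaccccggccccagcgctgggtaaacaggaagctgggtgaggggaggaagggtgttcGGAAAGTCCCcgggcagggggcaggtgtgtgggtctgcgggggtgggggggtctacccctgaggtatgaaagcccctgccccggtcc
Across the RefSeq promoter table, 32 of the 42 members matched, with 36 promoters of 300 bases (250 before and 50 after the start). TGCTGA, searched on both strands, was in 6 of the 36 (16.7%), beside 19.5% of 32619 promoters. The 6 were promoters of Cd27, Fasl, Tnfrsf9, Tnfrsf13b, Tnfsf8 and Tnfsfm13. The AP-1 core TGANTCA, which reads the same on both strands, was in 7 of 36 (19.4%), beside 7.85%. Those promoters belong to Fas, Tnfrsf8, Tnfrsf9, Tnfsf13, Tnfsf14 and, in 2 overlapping windows, Tnfsf13b. The NF-kB motif, searched on both strands, was in Ltb alone (2.78%), beside 0.414%. The pair of Tnfsf13b windows hold the same site, and no member promoter held matches to more than 1 of these motifs. A match is a description of the letters and not a binding site.

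At gene starts, 27 of 42 members had a peak within 1 kb in all 4 libraries (64.3%), beside 60.2% of 21627 protein-coding genes, which is close to the background. For the 10 members that are not in the promoter table, both gene ends were searched instead. No library had a peak at the start of 6 members (14.3%), beside 32.3% of all genes. These were Tnf, Tnfsf13, Tnfsf18, Tnfrsf4, Tnfrsf17 and, at its gene ends, Cd40lg. Death-domain receptors had a peak at the start, or at a gene end for Tnfrsf10b, in every library for 5 of 5 genes. For Tnfrsf10b these peaks lay at chr14:69784002-69784167, and the other gene end had none in WT 1. Costimulatory ligands had such a peak for 3 of 7, of which Tnfsf4 and Tnfsf9 were searched at their gene ends. Among the 13024 genes with a start or gene end called in all 4 libraries, Tnfrsf23 stood at a mean percentile of 88.8 by strength. Tnfsf9, by its gene ends, stood at 4.78. The median region shared by all libraries in the family stood at percentile 49.6 among the 78650 shared regions, close to 48.2 for all of them.

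**Figure D2:**
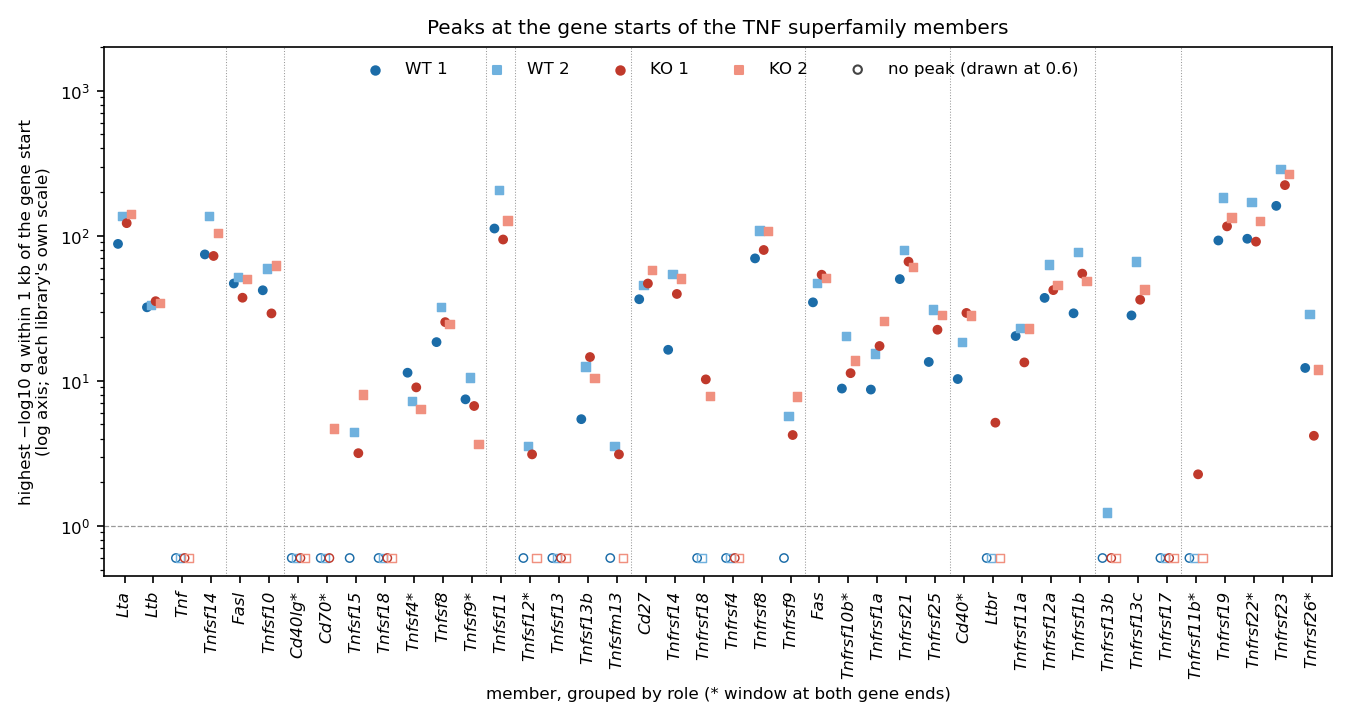
Each point is the highest −log10 q of a peak within 1 kb of a member's start in 1 library (log axis), with open symbols for no peak. For the 10 members marked with an asterisk, both gene ends were searched. Lta, Tnfsf11, Tnfsf14, Tnfrsf8, Tnfrsf19, Tnfrsf22 and Tnfrsf23 were high in all 4 libraries. Tnfrsf18 had points for KO 1 (10.2) and KO 2 (7.85) alone, and 6 members had none.

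Among the ligands of the TNF and lymphotoxin type, 11 of 14 regions were called in all 4 libraries (78.6%, beside 45.9% of all regions). Only 1 was KO-only (7.14%, beside 3.1%) and 0 were WT-only (beside 2.07%). None of the 11 ranked apart by at least 10 points. Tnf, the prototype cytokine, had its only region inside the gene at chr17:35200502-35200833, with a strength of 142 and 217 in WT and 149 and 194 in KO. It lay more than 1 kb downstream of the Tnf start, where no library had a peak. Lta, which encodes lymphotoxin α, was open inside the gene with 87.8 and 137 in WT and 122 and 142 in KO. Ltb, whose product anchors lymphotoxin to the membrane, had its strongest region at chr17:35195706-35196014, with a strength of 100.3 and 168 in WT and 117 and 131 in KO. The start of Ltb, shown above, was weaker, at 32.1 and 33.2 in WT and 35.4 and 34.2 in KO. By rank the genotypes overlapped at Tnf and at both Ltb regions, with the Ltb start at percentiles 75.1 and 56.7 in WT and 70.3 and 62.9 in KO. The Lta region ranked lower in WT, at 92.7 and 90.8 against 93.9 and 93.7, a gap far under 10 points. Tnfsf14 (LIGHT, a ligand of HVEM and of the lymphotoxin β receptor) had a region over its start with 74.3 and 137 in WT and 72.5 and 104 in KO. By rank it was slightly higher in WT, at 90.6 and 90.8 against 86.7 and 89.7. It also had a KO-only region 6.3 kb from the gene, at chr17:57182997-57183171, with a strength of 3.37 in KO 1 and 9.52 in KO 2.

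The death ligands had 46 regions, of which 26 were shared (56.5%, beside 45.9% of all regions), 1 was WT-only (2.17%, beside 2.07%) and 1 was KO-only (2.17%, beside 3.1%). Fasl, which encodes the ligand of the death receptor Fas, was surrounded by 27 regions, 17 of them shared. The region at its start, which covers 193 bases of the promoter shown above, had a strength of 46.9 and 52.0 in WT and 37.4 and 50.2 in KO. Its strongest region lay 14.4 kb away at chr1:161765960-161766269, with 71.2 and 209 in WT and 113 and 128 in KO, and by rank too the WT libraries (90.03 and 95.6) stood on either side of both KO libraries (93.0 and 92.6). About 1 kb from it, a WT-only region at chr1:161767196-161767452 had 10.5 in WT 1 and 4.28 in WT 2. Between them, and closer to the WT-only region, lay a shared region at chr1:161766646-161766989. It had 95.7 and 98.2 in WT and 92.9 and 110 in KO. A KO-only region 80.6 kb away, at chr1:161699963-161700126, had 2.27 in KO 1 and 3.66 in KO 2. On the same side, 75.6 kb from Fasl, a shared region was stronger in WT by rank: 15.8 and 40.9 in WT, 5.76 and 17.6 in KO. Those strengths overlapped, but its rank percentiles among shared regions were 55.7 and 63.2 in WT against 12.2 and 39.6 in KO. A second one, 6 kb away, had percentiles of 46.6 and 41.8 in WT and 20.6 and 27.9 in KO. Tnfsf10, which encodes TRAIL, had 9 shared regions of 19 and none of either genotype alone. Its tallest region, 5.93 kb away, had 49.7 and 115 in WT and 53.0 and 83.9 in KO, and its start 42.1 and 59.3 in WT and 29.1 and 62.3 in KO, with the genotypes overlapping by rank at both. One shared region, 2.53 kb from the gene, ranked lower in WT, at percentiles 19.1 and 16.3 against 58.0 and 33.2 in KO. Ranked by fold enrichment in place of strength, that region no longer met the rule.

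Costimulatory ligands had 77 regions, of which 37 were shared (48.1%, beside 45.9% of all regions), 1 was WT-only (1.30%, beside 2.07%) and 0 were KO-only (beside 3.1%). Tnfsf8, which encodes CD30 ligand, was the most uniform, with 11 of 13 regions called in all 4 libraries. A region inside the gene, at chr4:63859848-63860191, had a strength of 5.21 and 10.8 in WT and 17.5 and 22.2 in KO. Its percentiles of 18.4 and 18.99 in WT lay far below 47.9 in both KO libraries, with next to no gap within either genotype. The start of Tnfsf8 had 18.5 and 32.4 in WT and 25.4 and 24.6 in KO, and its tallest region 38.3 and 56.7 in WT and 53.7 and 51.0 in KO. A second Tnfsf8 region, 24.7 kb away, was lower in WT by strength (0.294 and 23.4 against 34.3 and 35.4 in percentiles), but by fold enrichment its gap fell under 10 points. Tnfsf4, which encodes OX40 ligand, had 13 regions and 1 shared one, inside the gene, with 11.4 and 7.22 in WT and 9.01 and 5.38 in KO. Its WT-only region, 18.4 kb away at chr1:161436633-161436863, was weak, with 2.91 in WT 1 and 2.72 in WT 2. Cd40lg, on X, had 10 of 20 regions shared, although neither gene end had a peak. The tallest of these, 15.5 kb away, had a strength of 36.8 and 76.5 in WT and 58.5 and 74.8 in KO, and ranked slightly lower in WT, at 78.2 and 79.9 against 82.6 and 83.9. Another, 30.9 kb away, ranked higher in WT, at percentiles 25.3 and 17.9 against 6.16 and 1.09. The tallest regions of Tnfsf15 (ligand of DR3), Tnfsf18 (GITR ligand), Cd70 (CD27 ligand) and Tnfsf9 (ligand of CD137) all lay outside the genes, 8.45 to 21.9 kb away. Their mean percentiles ran from 72.9 at Tnfsf18 to 86.5 at Tnfsf9. At Tnfsf9 the strengths were 80.4 and 96.7 in WT and 73.1 and 69.9 in KO, and by rank the genotypes overlapped, at 91.7 and 84.9 in WT and 86.9 and 82.4 in KO. At Tnfsf15 they were 49.98 and 105 in WT and 63.7 and 71.9 in KO, and the ranks overlapped. Peaks at the gene ends of Tnfsf9, which has no listed start, were weaker, with 7.45 and 10.5 in WT and 6.70 and 3.66 in KO. The start of Tnfsf15 had no peak in WT 1, 4.41 in WT 2, and 3.17 and 8.05 in KO. These distal regions were called in every library. The start of Tnfsf18 had a peak in 0 libraries, and the gene ends of Cd70 had one in 1 library.

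Tnfsf11 (RANK ligand) had more regions than any other member, 18 of 38 shared (47.4%, beside 45.9% of all regions). Of the 38, 0 were WT-only (beside 2.07%) and 1 was KO-only (2.63%, beside 3.1%). The start, at chr14:78307921-78308275, was its tallest region and had a strength of 112 and 207 in WT and 94.2 and 127 in KO. In percentiles among shared regions this was 95.1 and 95.6 in WT and 90.8 and 92.5 in KO, so both WT libraries ranked it higher, by less than the 10 points set for a call. A region inside the gene, at chr14:78304108-78304451, had 56.2 and 73.4 in WT and 64.2 and 77.2 in KO. Upstream stood a pair at 47.3 and 48.6 kb. The farther one had percentiles of 85.9 and 86.2 in WT and 76.2 and 80.5 in KO, again higher in WT by less than 10 points. Farther along, past the gene's other end, 2 shared regions ranked lower in WT. The one 41.9 kb away was at percentiles 1.96 and 7.14 in WT against 30.6 and 41.4 in KO, and the one 15.9 kb away at 41.7 and 36.4 against 58.4 and 58.9. Closer in, 3.52 kb from the same gene end, the order turned: 40.4 and 56.6 in WT against 26.7 and 28.8 in KO. The last of these no longer met the rule when ranked by fold enrichment. A KO-only region 24.5 kb upstream, at chr14:78332560-78332671, had 5.14 in KO 1 and 3.66 in KO 2. The locus thus held regions that ranked apart in both directions.

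Ligands of the TWEAK, APRIL and BAFF type had 12 regions. Of these, 3 were shared (25.0%, beside 45.9% of all regions) and 9 were called in 1 library alone (75.0%, beside 28.6%). None was WT-only (beside 2.07%) or KO-only (beside 3.1%). Tnfsf13 (APRIL) and the read-through gene Tnfsfm13, whose body spans Tnfsf12 and Tnfsf13, shared a region at chr11:69682840-69683053 with a strength of 49.7 and 73.4 in WT and 43.7 and 50.5 in KO. Because the bodies overlap, regions there cannot be given to 1 gene. The shared region that Tnfsfm13 and Tnfsf12 (TWEAK) have in common had 3.27 and 7.24 in WT and 11.5 and 8.05 in KO. Tnfsf13b, which encodes BAFF, had 5.44 and 12.6 in WT and 14.6 and 10.5 in KO near its start.

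**Figure D3:**
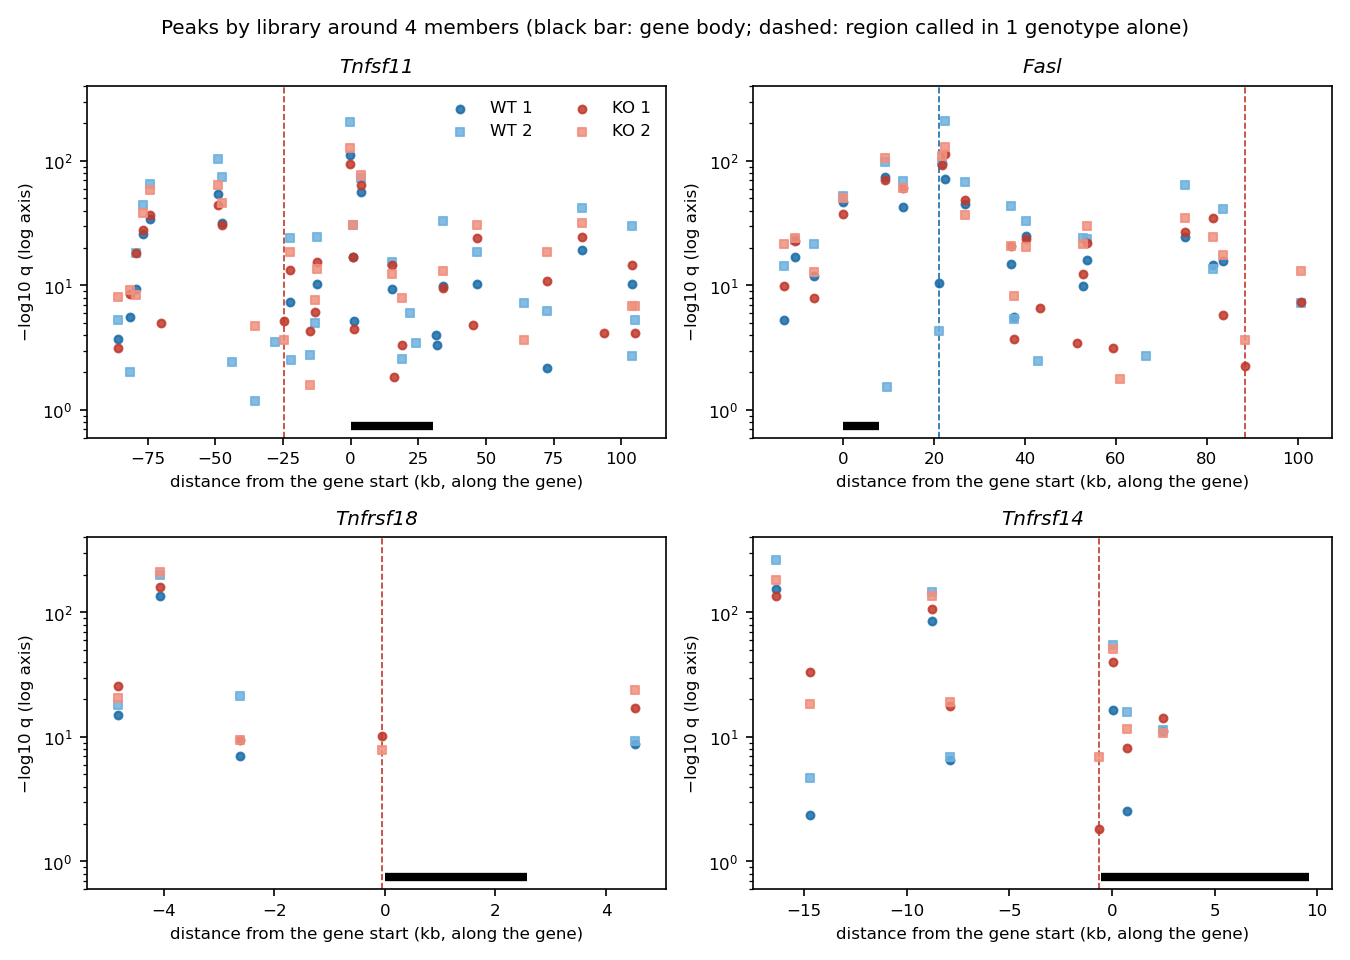
Each point is a peak's −log10 q (log axis) in 1 library, by the distance of its region from the gene start in kb, for Tnfsf11, Fasl, Tnfrsf18 and Tnfrsf14; the black bar is the gene body and dashed lines mark regions called in 1 genotype alone. At Tnfrsf18 the KO-only region sits at the start, and at Tnfrsf14 the region 13.99 kb from the gene has both KO points (33.0 and 18.6) above both WT points (2.36 and 4.68).

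Costimulatory receptors of T cells had 61 regions. Of these, 42 were shared (68.9%, beside 45.9% of all regions), 3 were KO-only (4.92%, beside 3.1%) and 0 were WT-only (beside 2.07%). Of the 42 shared regions, 4 ranked at least 10 points lower in both WT libraries than in both KO libraries (9.52%, beside 4.53% of all shared regions) and 1 ranked higher (2.38%, beside 4.94%). With so few regions these shares describe the group only. The KO-only and lower regions belonged to 3 genes, Tnfrsf18, Tnfrsf14 and Tnfrsf9. They lie on chromosome 4, as do Tnfrsf4 and Tnfrsf8 of this group.

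Tnfrsf18 encodes GITR, a receptor of activated and regulatory T cells. Its KO-only region, at chr4:156026207-156026319, lay 3 bp from the gene and covered the promoter bases shown above. It had a strength of 10.2 in KO 1 and 7.85 in KO 2 and no peak in WT 1 or WT 2. It was 1 of 3 KO-only regions of the family with a strength of at least 5 in both libraries. A region 1.73 kb past the gene had 8.70 and 9.30 in WT and 17.2 and 23.7 in KO. Its percentiles were 36.1 and 15.5 in WT and 47.4 and 50.3 in KO, a gap that fell under 10 points when ranked by fold enrichment. The tallest region of the locus, 3.69 kb before the gene, had 135 and 199 in WT and 159.3 and 210.1 in KO. By rank it overlapped between genotypes, at 96.5 and 95.2 in WT and 96.2 and 97.1 in KO. The neighbouring Tnfrsf4 forms a cluster of 15.3 kb with Tnfrsf18 and had no region.

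Tnfrsf14 encodes HVEM, the receptor of LIGHT. Here 7 of 8 regions were shared and the remaining one was KO-only. That region, at chr4:154928617-154928804 over the gene's edge, had 1.81 in KO 1 and 6.96 in KO 2. The widest difference in mean rank among the family's shared regions stood 13.99 kb away at chr4:154942611-154942951. Its strength was 2.36 and 4.68 in WT against 33.0 and 18.6 in KO, or percentiles of 2.97 and 3.68 against 68.2 and 41.9. Both WT libraries put it among the lowest shared regions, and the KO libraries put it near or above the middle. It kept its direction when ranked by fold enrichment, at 1.25 and 2.46 in WT and 58.4 and 26.6 in KO. A second region 7.24 kb away had 6.56 and 6.89 in WT and 17.9 and 19.1 in KO, but its gap fell under 10 points by fold enrichment. The tallest region, 15.7 kb away, ranked slightly higher in WT, at 97.3 and 97.3 against 94.9 and 96.1 in KO. The start of the gene had 16.4 and 54.7 in WT and 39.7 and 50.7 in KO, and ranked lower in WT by less than 10 points, at 56.8 and 71.5 against 73.4 and 74.7.

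Tnfrsf9 encodes CD137, an inducible costimulatory receptor. Its tallest region, inside the gene at chr4:150924287-150924704, had 92.4 and 119 in WT and 111 and 102 in KO, with ranks that overlapped. A KO-only region just beyond it, at chr4:150925123-150925259, had 5.51 in KO 1 and 1.86 in KO 2. A shared region 4.98 kb from the gene ranked lower in WT by both rankings, at 49.5 and 42.5 in WT against 69.3 and 65.9 in KO by strength. Tnfrsf8, which encodes CD30, had 14 of 22 regions shared and the group's only one that ranked higher in WT. This region, 26.6 kb away at chr4:145341762-145342471, had 47.2 and 113 in WT against 29.8 and 46.0 in KO, or percentiles of 83.2 and 87.8 against 65.1 and 71.9. The start of Tnfrsf8, its tallest region, had 69.8 and 109 in WT and 79.7 and 107 in KO. Cd27 had 6 of 10 regions shared and none that ranked apart. Its start, shown above, had 36.5 and 45.9 in WT and 46.8 and 57.8 in KO, and the tallest region, 1.31 kb away, had 39.0 and 91.1 in WT and 56.2 and 79.5 in KO.

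Death-domain receptors had 46 regions, of which 20 were shared (43.5%, beside 45.9% of all regions), 1 was WT-only (2.17%, beside 2.07%) and 3 were KO-only (6.52%, beside 3.1%). All 3 KO-only regions belonged to Tnfrsf10b, the receptor of TRAIL in the mouse. They were narrow and weak. At chr14:69761707-69761861, 5.61 kb from the gene, the strength was 3.61 in KO 1 and 6.80 in KO 2. Inside the gene, chr14:69767656-69767761 had 4.13 and 1.79, and chr14:69768058-69768162 had 4.13 and 5.77. A shared region of the same gene went the other way, at chr14:69780396-69780621, with percentiles of 71.3 and 69.0 in WT against 58.0 and 55.8 in KO. Its tallest region had a strength of 90.7 and 180.3 in WT and 104 and 128 in KO, and ranked slightly higher in WT, at 93.0 and 94.1 against 92.0 and 92.6.

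Tnfrsf1a, which encodes TNFR1, the receptor that carries most TNF signals, ranked lower in WT at its start. The region, at chr6:125349599-125349772, had a strength of 8.70 and 15.4 in WT and 17.4 and 25.8 in KO. In percentiles this was 36.1 and 30.3 in WT against 47.6 and 53.7 in KO, and the call held by fold enrichment. Its tallest region, inside the gene, overlapped by rank between genotypes, with strengths of 96.5 and 158.7 in WT and 106 and 163 in KO. Fas, the receptor of Fas ligand, had a region inside the gene at chr19:34312275-34312435 with 10.3 and 28.8 in WT and 33.1 and 39.96 in KO. Its percentiles of 41.7 and 51.8 in WT lay below 68.4 and 67.8 in KO. The start of Fas had 34.7 and 47.1 in WT and 53.8 and 51.2 in KO, and its tallest region, inside the gene, 60.4 and 156 in WT and 107 and 99.8 in KO. By rank the genotypes overlapped at both, the start standing at 76.8 and 67.3 in WT and 80.8 and 74.9 in KO. Tnfrsf21, which encodes death receptor 6, had a WT-only region 16.5 kb away at chr17:42999943-43000071, with 2.15 in WT 1 and 7.24 in WT 2. Its start had 50.2 and 79.3 in WT and 66.3 and 61.1 in KO. Both regions of Tnfrsf25, which encodes DR3, were shared, and its start had 13.48 and 31.0 in WT and 22.5 and 28.5 in KO.

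Receptors that act in lymphoid tissue and on NF-kB had 58 regions, of which 33 were shared (56.9%, beside 45.9% of all regions). Of the 58, 0 were WT-only (beside 2.07%) and 1 was KO-only (1.72%, beside 3.1%). Tnfrsf1b (TNFR2) had 15 of 17 regions shared and none ranked apart. Its tallest region, inside the gene at chr4:145235905-145236520, had a strength of 138 and 201 in WT and 137 and 166 in KO. Cd40, a receptor of antigen-presenting cells, ranked lower in WT at chr2:165055564-165055811, over a gene end. There the strength was 10.3 and 18.4 in WT and 29.3 and 28.1 in KO, with percentiles of 41.0 and 36.1 against 64.8 and 56.3. Tnfrsf11a, which encodes RANK, had 15 of 31 regions shared. Its KO-only region, 18.9 kb away at chr1:105868317-105868467, had 6.20 in KO 1 and 10.5 in KO 2. The region 33.0 kb away ranked higher in WT, at 48.9 and 48.2 against 29.0 and 34.4, but not by at least 10 points of fold enrichment. The region 34.1 kb away ranked higher by both rankings, at 51.2 and 34.9 against 11.5 and 2.42 by strength. On the other side of the gene, 11.9 kb away, a region ranked lower in WT. It had percentiles of 20.4 and 34.1 in WT against 55.4 and 50.8 in KO. The start of Tnfrsf11a had 20.3 and 23.1 in WT and 13.4 and 23.0 in KO, and its tallest region, 41.7 kb away, 29.5 and 55.6 in WT and 59.2 and 64.7 in KO. The latter ranked lower in WT by under 10 points, at 73.1 and 72.0 against 82.9 and 80.7. Tnfrsf12a (Fn14, the receptor of TWEAK) had 1 region, over its start, with 37.3 and 63.3 in WT and 42.2 and 45.5 in KO.

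Receptors of the B lineage had 20 regions, 9 of them shared (45.0%, beside 45.9% of all regions). None was WT-only (beside 2.07%) or KO-only (beside 3.1%). Tnfrsf13b, which encodes TACI, had its tallest region inside the gene, with a strength of 95.8 and 195 in WT and 140 and 142 in KO. Its start had a peak in WT 2 alone, at 1.24. Tnfrsf13c, which encodes the BAFF receptor, was open at its start with 28.2 and 66.4 in WT and 36.2 and 42.6 in KO. A region 2.73 kb from Tnfrsf13c ranked lower in WT, at 17.3 and 16.5 against 41.9 and 39.8. Tnfrsf17 (BCMA) had no peak at its start, and its tallest region, 15.1 kb away, had 47.4 and 92.1 in WT and 47.1 and 61.7 in KO. B cell markers had a peak at 3 and 4 of 8 starts in WT and at 4 and 4 in KO, and their part in these values was not tested. Of these markers, Ebf1, Cd79a and Cd79b had a peak in every library, and Pax5 and Cd22 had one in none.

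Decoy and other receptors had 42 regions, of which 20 were shared (47.6%, beside 45.9% of all regions), 1 was WT-only (2.38%, beside 2.07%) and 1 was KO-only (2.38%, beside 3.1%). Tnfrsf22 and Tnfrsf23, mouse decoy receptors of TRAIL, lie with Tnfrsf26 in a cluster of 78.8 kb on chromosome 7. The start of Tnfrsf23 had the highest strength of any member's start, 160.6 and 289 in WT and 223 and 267 in KO. At Tnfrsf22 a region inside the gene ranked lower in WT, at 36.1 and 25.6 against 56.9 and 49.5. At Tnfrsf26 a region 0.77 kb away ranked higher in WT, at 47.2 and 52.0 against 6.88 and 26.05. The tallest region of Tnfrsf22 had 95.3 and 170.2 in WT and 91.1 and 126 in KO, and ranked higher in WT by under 10 points, at 93.6 and 93.5 against 90.3 and 92.4. That of Tnfrsf26 had 40.6 and 91.7 in WT and 35.5 and 66.0 in KO, with ranks that overlapped. Neighbours within 1 cluster thus ranked apart in opposite directions. Tnfrsf19, which encodes TROY, a receptor of epithelial and neural tissue, has more than 1 listed start. It was open at the outer start, at 61046855, with 92.7 and 184 in WT and 116 and 133 in KO. The region over the inner start, chr14:61037699-61038224, had 13.4 and 24.8 in WT and 15.5 and 12.5 in KO. Near the outer start, 0.558 kb from the gene, stood a WT-only region at chr14:61047413-61047614, with 4.55 in WT 1 and 4.34 in WT 2. Inside the gene, a KO-only region at chr14:60988317-60988476 had 8.43 in KO 1 and 12.5 in KO 2, the highest KO 2 value of the 11. A shared region inside the gene, at chr14:61016252-61016445, ranked higher in WT, at 13.8 and 18.4 against 0.0159 and 0.133, so the KO libraries put it at the very bottom of the shared regions.

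**Figure D4:**
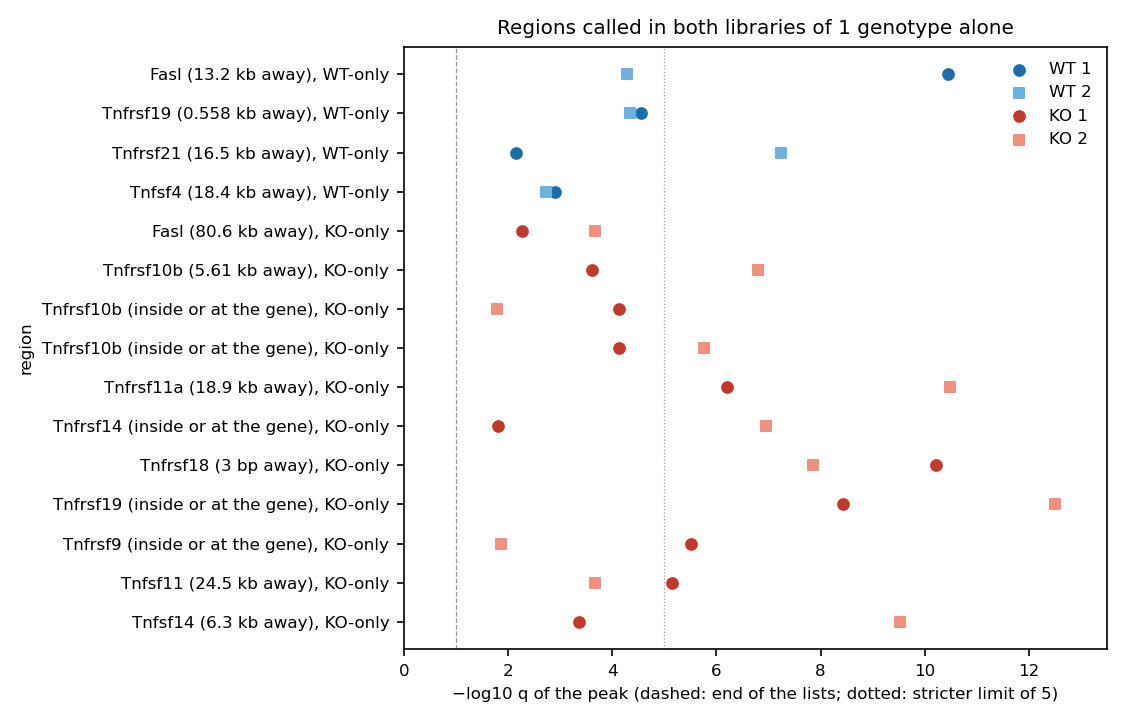
The strength (−log10 q, horizontal axis) of the 15 member regions called in both libraries of 1 genotype and in neither of the other is shown by library, with the distance to the gene. No WT-only region reached 5 in both libraries, and 3 KO-only regions did (Tnfrsf11a, Tnfrsf18 and Tnfrsf19).

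Over all members, WT-only regions lay at 4 genes and KO-only regions at 9, with both kinds at Fasl and Tnfrsf19 and neither at 31. The 4 WT-only regions had a strength of 2.15 to 10.5 and the 11 KO-only regions 1.79 to 12.5, low on the scale of the family, where tall regions exceeded 100. Receptors had 8 of the 11 KO-only regions (3.52% of their 227 regions) and ligands 3 (1.60% of 187), beside 3.1% over all regions. The counts depend on each library in turn, since a rule over 3 libraries is easier to meet. WT-only regions numbered 37 of 399 without WT 1 and 19 of 381 without WT 2, beside 12.3% and 5.84% of all regions. They numbered 13 of 374 without KO 1 and 7 of 391 without KO 2, beside 4.35% and 4.23%. KO-only regions numbered 13, 35, 34 and 51 in the same order, beside 4.14%, 11.8%, 9.49% and 13.9%. With peaks below a strength of 5 left out, there were 5 WT-only and 9 KO-only regions of 301, beside 1.77% and 3.18%. Of the regions described above, 0 of the 4 WT-only and 3 of the 11 KO-only ones were among them.

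Shared regions gave a finer comparison, since each of the 219 was ranked in every library among the same 78650 regions. A region was called apart when both WT percentiles lay at least 10 points above or below both KO percentiles. This held for 10 regions higher in WT (4.57%, beside 4.94% of all shared regions) and 15 lower in WT (6.85%, beside 4.53%). Percentiles lie close together among the tallest regions, so the rule is harder to meet there. In KO 1, strengths of 94.2 at the Tnfsf11 start and 159.3 at the tallest Tnfrsf18 region stood at percentiles 90.8 and 96.2. A tall region that was not called apart is therefore not shown to be equally accessible in both genotypes. The median difference of WT minus KO was −0.167 percentile points over the family and −0.0607 over all shared regions. The lower regions belonged to 12 members and the higher ones to 8. Receptors had 10 lower regions among 124 shared (8.06%) and ligands 5 among 95 (5.26%). Of the 10 higher regions 8, and of the 15 lower regions 11, were also called when ranked by fold enrichment. Leaving out 1 library changed these counts to 20 to 32 and to 23 to 32, as the rule then asks for fewer libraries to differ. Higher regions numbered 24 of 243 without WT 1 and 32 of 221 without WT 2, beside 9.62% and 11.9% of all shared regions. They numbered 27 of 222 without KO 1 and 20 of 228 without KO 2, beside 9.90% and 11.2%. Lower regions numbered 31, 28, 23 and 32 in the same order, beside 9.91%, 11.9%, 9.74% and 11.2%.

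**Figure D5:**
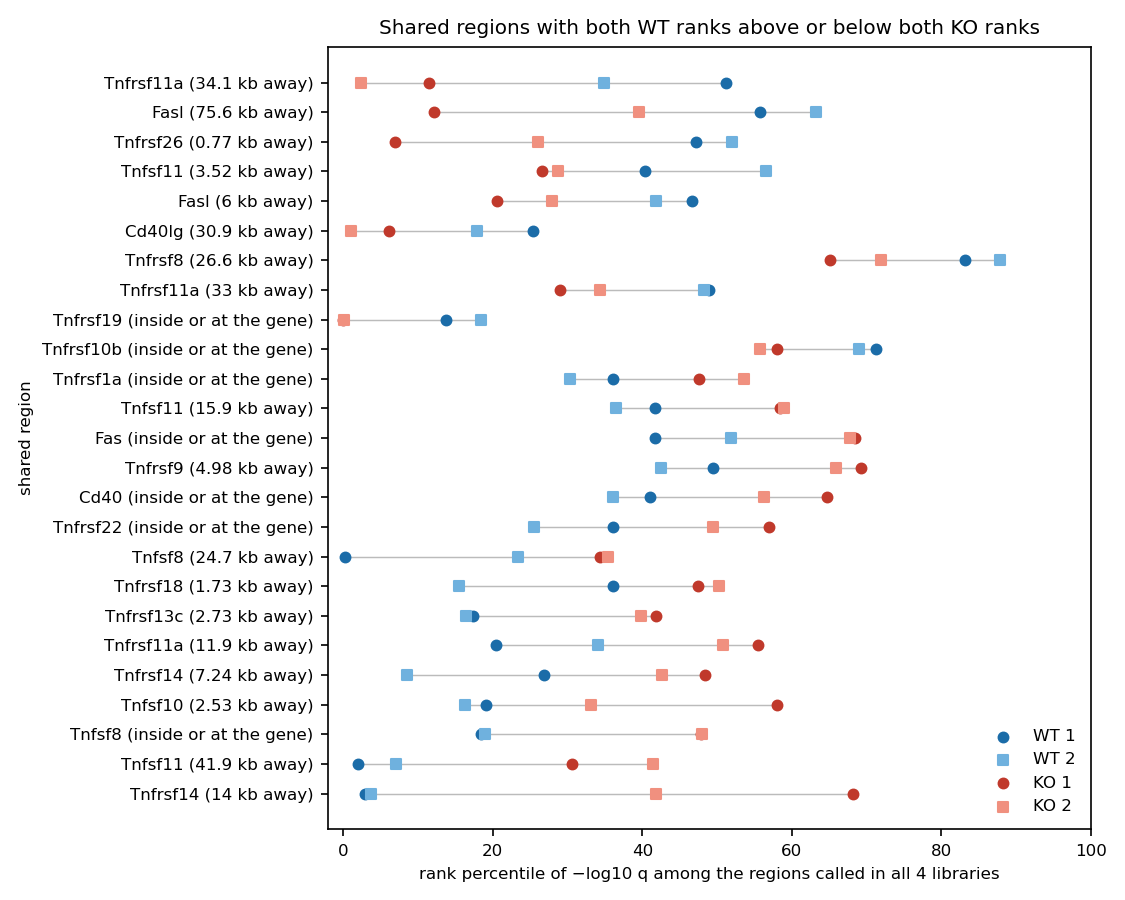
Rank percentiles of −log10 q (horizontal axis) in each library are shown for the 25 shared member regions whose WT and KO ranks were at least 10 points apart, ordered by the difference of genotype means. The top 10 are higher in WT and the bottom 15 lower in WT, with a Tnfrsf14 region 13.99 kb from the gene at the end, at 2.97 and 3.68 in WT against 68.2 and 41.9 in KO.

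Genes downstream of the receptors were counted in the same way from a list of 32 adaptors and regulators. Every one of them, from Traf2 to Sharpin, had a peak at its start in all 4 libraries, beside 60.2% of all protein-coding genes. Of their 373 regions, 206 were shared (55.2%, beside 45.9% of all regions). Another 9 were WT-only (2.41%, beside 2.07%) and 6 were KO-only (1.61%, beside 3.1%). Of the shared regions, 13 ranked higher in WT (6.31%, beside 4.94%) and 4 lower (1.94%, beside 4.53%). The difference between this list and the family was not tested. Tnfaip3, which encodes A20, an inhibitor of NF-kB signalling, had a WT-only region 9.52 kb away with 10.3 in WT 1 and 44.7 in WT 2. Ikbkb, which encodes the kinase IKKβ, had one inside the gene with 8.60 in WT 1 and 49.5 in WT 2. Traf1, an adaptor of costimulatory receptors, had one with 9.04 and 9.75. On the KO side stood Birc2, which encodes the ubiquitin ligase cIAP1, with 5.28 in KO 1 and 5.14 in KO 2. Map3k7, which encodes the kinase TAK1, had 2 KO-only regions. The nearer, 20.6 kb away, had 2.27 in KO 1 and 9.25 in KO 2, and the farther, 93.2 kb away, 3.17 and 3.66.

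The farthest region counted for a member lay 92.8 kb from Fasl, called in WT 2 and both KO libraries with a strength of 7.24, 7.30 and 13.05. The nearest one beyond the limit lay 108 kb from Tnfsf18, with 1.95, 1.43 and 10.5 in the same libraries.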

How the data were processed

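Peak lists of 4 Omni-ATAC-seq libraries, 2 of each genotype, were analysed. The submitters' processing notes list, with no roles, MACS2 2.1.1, deepTools 3.1.2, Bowtie2 2.3.4.1, bedtools, Picard, cutadapt and Trim Galore; the builds were mm10 and GRCm38. For the Tn5 shift, duplicates and peak settings, nothing was given in the sources used here. Deposited by the authors was 1 list per library. Its −log10 p and −log10 q and its fold enrichment (ratio of summit to local background) were computed by the authors within that library, and every deposited list ended at a q of 0.1. The deposited score was 10 times the −log10 q without decimals for nearly every peak and was not used. These values served only to describe, rank or filter peaks. Read totals were not analysed here, so depth is described by the number of peaks, and no counting interval is given.

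Peaks on chromosomes 1 to 19 and X sharing at least 1 bp were merged (Python 3.11.15, pandas 2.3.3). A library called a region when it had a peak there. A region's −log10 q was its highest peak. Regions went to the nearest RefSeq protein-coding gene body of GRCm38.p6 within 100 kb, and 9 regions tied between overlapping members were counted once in totals and under each gene. Gene starts came from the RefSeq promoter table, and where a gene had several, the highest peak over them was taken. Positions are 1-based. Percentiles were taken over regions called in all 4 libraries. The rule for named values was every WT-only, KO-only or apart-ranked region, the gene starts of each role group and the region of highest mean percentile of members with at least 5 regions; some starts and tallest regions are given by the plot or by ranges. Members, role groups, the list of signalling genes and markers were chosen with earlier results of these data known. Merging, assignment and ranking were tested on simulated data. The size of change that the ranking rule would find among the tallest regions is not reported here. The alternatives were a −log10 q of at least 5, equal numbers of peaks (102718), at least 0.5 of a region covered, 20 kb, ties left out, each library left out, a gap of 5 points, ranking by fold enrichment and pairs of replicate numbers.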

Additional observations from a re-analysis of the deposited data

How the results depend on the processing

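Regions called in all 4 libraries and members open at the start or a gene end stayed within 1.5 times their count under every alternative run. The difference in regions called per library stayed negative, from −28 to −5.5, with exact permutation p from 0.333 to 1; at −5.5, with equal numbers of peaks, the genotypes did not overlap. Without 1 library, WT-only regions ranged from 7 to 37, beside 4.23% to 12.3% of all regions. KO-only regions ranged from 13 to 51, beside 4.14% to 13.9%. Shared regions ranked higher in WT ranged from 20 to 32, beside 9.62% to 11.9% of all shared regions. Those ranked lower ranged from 23 to 32, beside 9.74% to 11.9%. By construction, fewer libraries then have to meet the rule. With equal numbers of peaks KO-only regions numbered 7 of 345, beside 2.98% of all regions, and 4 of the 7 were among the 11. Of the 4 WT-only regions 1 was kept, and the cause was not tested. A gap of 5 points gave 18 higher and 31 lower regions of 219, beside 9.26% and 9.13% of all shared regions. In the replicate block, the WT and KO library of 1 number had to differ by 10 points in both pairs. There, 17 regions were higher and 19 lower, beside 7.06% and 6.82%. The labels do not say that a number marks shared material, and the within-genotype differences of WT and KO correlated at 0.0318 over 78650 shared regions. Leaving out ties changed nothing, as no member region was tied with a gene outside the family. Peak lists hold no value for a region below the q limit, so a missing call does not show closed chromatin.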
